A study of Homo sapiens with 6 samples.

Results

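The TRIM family of E3 ubiquitin ligases was examined in RNA-seq of TFK1 cells, which derive from a carcinoma of the extrahepatic bile duct, with and without overexpression of STUB1. Members were the genes whose symbol is TRIM followed by digits and at most 1 letter, which selected 57 of the 23569 genes listed. Antisense and readthrough rows with a TRIM name were left out. The negative control cells (oeNC, n = 3 libraries) and the cells overexpressing STUB1 (oeSTUB1, n = 3) were made with lentivirus and selected with puromycin. The STUB1 virus carried the full-length coding sequence in the pHAGE vector and the labels list no further treatment for either group. As far as the labels and methods tell, each group is 1 stably transduced population, and nothing says whether the 3 libraries of a group came from separate cultures, so that p-values measure the spread between these libraries, which may be technical.

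TRIM proteins carry a tripartite motif at the amino terminus, in which a RING finger that recruits a ubiquitin-loaded E2 enzyme is followed by B-box zinc fingers and a coiled coil through which the proteins pair. The domain after this motif sorts the family into classes and chooses the substrate, for example the PRY-SPRY domain of the antiviral members or the PHD finger and bromodomain of the members that act on chromatin. STUB1, also called CHIP, is an E3 ligase of a different kind, with a U-box in place of the RING and repeats that hold heat shock proteins. The study asked which genes STUB1 controls through UHRF1 and DNMT1, the pair that maintains DNA methylation. It also tested TRIM26 beside STUB1 as a candidate ligase for UHRF1. In HEK293T cells TRIM26 bound UHRF1, but the paper reports no significant change of UHRF1 ubiquitination by TRIM26.

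Values are FPKM, the fragments of a gene scaled to its length and to the total fragments of the library. Whole fragment numbers were recovered from them, and library totals lay between 33106564 and 36744521 fragments. oeSTUB1 replicate 2 stood apart. In fragments over all genes it differed from the other 2 oeSTUB1 libraries by a chi-square of 76.7 and 82.6 for each degree of freedom, where the other replicate pairs of both groups gave 3.48 to 10.4, and its deviations moved with gene length, so the results that turn on it are given with and without it. STUB1 itself stood at 32.9, 33.0 and 30.9 FPKM in the oeNC libraries and at 61.4, 75.0 and 61.9 FPKM in the oeSTUB1 libraries, a log2 fold change of 1.03 (SE 0.097, adjusted p = 0.00064 from limma), or 0.93 without oeSTUB1 replicate 2. Endogenous and transduced STUB1 fragments are counted together. All 6 bile duct markers (KRT7, KRT19, KRT8, KRT18, EPCAM, SOX9) had a mean of at least 1 FPKM, but KRT19, a defining marker, stood at only 0.453 FPKM on average in oeNC and 2.97 FPKM in oeSTUB1. These markers moved between the groups, since KRT19 was higher in oeSTUB1 (log2 fold change 2.47) and KRT8 (-0.57), KRT18 (-0.68) and EPCAM (-1.13) were lower, each at an adjusted p under 0.05 in limma, and their sum was 7357 to 7935 FPKM in oeNC and 4693 to 6241 FPKM in oeSTUB1. Summed marker levels were at most 1.37 FPKM for hepatocytes, 0.231 FPKM for endothelium and 3.84 FPKM for fibroblasts, mostly COL1A1. The immune list summed to 32.3 to 34.7 FPKM in oeNC and 25.8 to 26.5 FPKM in oeSTUB1, mostly CD68, which was lower (27.2 against 19.2 FPKM, adjusted p = 0.0030 from limma), while its defining marker PTPRC had means of 0.121 FPKM in oeNC and 0.225 FPKM in oeSTUB1. Whether any of these marker levels has a part in the results below was not tested, and fewer cells of a type and less RNA per cell cannot be told apart in bulk samples.

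Most of the listed members were expressed in TFK1 cells. The deposited table lists 0 genes that are at 0 FPKM in every library. TRIM genes without any fragment would thus be missing from the 57, and the share of the whole family that is expressed is not given. Of the 57 members, 9 had a mean of at least 10 FPKM over the 6 libraries, 27 lay between 1 and 10 FPKM, and 9 lay between 0.1 and 1 FPKM. These 45 were tested. The other 12 fell under the filter of 0.1 FPKM, with a highest mean of 0.0807 FPKM and at most 14 fragments in any library. The summed level of all members was 465 to 467 FPKM in oeNC and 467 to 494 FPKM in oeSTUB1, and their fragments made up 0.193% to 0.194% of the oeNC libraries and 0.199% to 0.201% of the oeSTUB1 libraries. The share was thus slightly higher in each oeSTUB1 library, and the members' median log2 fold change of 0.02 was that of all 15353 genes tested, also 0.02.

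**Figure D1:**
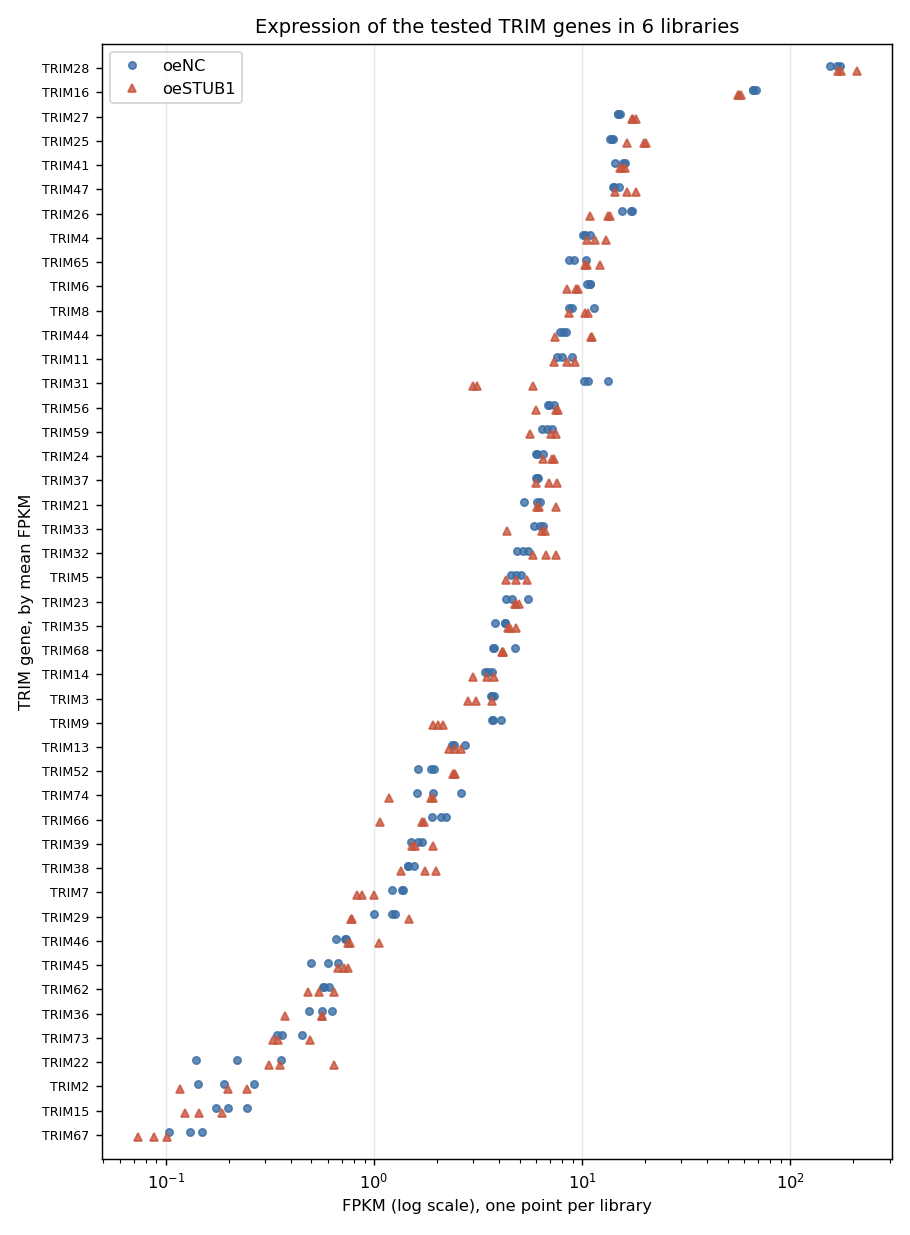
Expression of the 45 tested TRIM genes in FPKM on a log axis, with 1 point per library, circles for oeNC and triangles for oeSTUB1, ordered by mean. TRIM28 and TRIM16 stand above the others, and TRIM31 shows the widest gap between the groups.

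TRIM28, also called KAP1, the corepressor that KRAB zinc finger proteins use to silence chromatin, was by far the most abundant member. It stood at 174, 168 and 154 FPKM in oeNC and at 176, 208 and 169 FPKM in oeSTUB1, and 33.2% to 42.1% of the summed FPKM of the family came from it. The highest value was that of oeSTUB1 replicate 2, and the groups overlapped. The log2 fold change was 0.15 with a 95% interval from -0.09 to 0.39 (adjusted p = 0.38 from limma), and it was 0.06 without that library. TRIM16, which has B-boxes but no RING and takes part in the autophagy of damaged lysosomes, came next. It stood at 65.9, 66.4 and 68.1 FPKM in oeNC and at 56.3, 56.7 and 57.8 FPKM in oeSTUB1. Every oeSTUB1 library was below every oeNC library, yet the difference of -0.23 missed the threshold (adjusted p = 0.061 from limma). It passed without oeSTUB1 replicate 2, with the same size of -0.23 (adjusted p = 0.0076 from limma).

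The members that passed an adjusted p of 0.05 numbered 5 of 45. TRIM25 was higher in oeSTUB1, which is 1 of 45 tested members where 7.01% of all genes tested were higher at this threshold. TRIM31, TRIM9, TRIM26 and TRIM7 were lower, which is 4 of 45 where 6.59% of all genes were lower. With a log2 fold change beyond 1 added, 0 members were higher, where 2.79% of all genes were, and TRIM31 alone was lower, where 2.40% of all genes were. No member had a log2 fold change over 0.66 in this fit, so the count of 0 is the same at an unadjusted p under 0.05. It was also 0 with limma-voom, where TRIM22 had a log2 fold change of 0.87. An unadjusted p under 0.05 was reached by 11 members. The groups did not overlap in 16 members, 8 above (21.5% of all genes) and 8 below (17.3% of all genes). These shares of the family are close to those of the whole table and are no result about TRIM genes as a class. Without oeSTUB1 replicate 2 the members that did not overlap were 12 above (31.6% of all genes) and 8 below (23.9% of all genes).

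**Figure D2:**
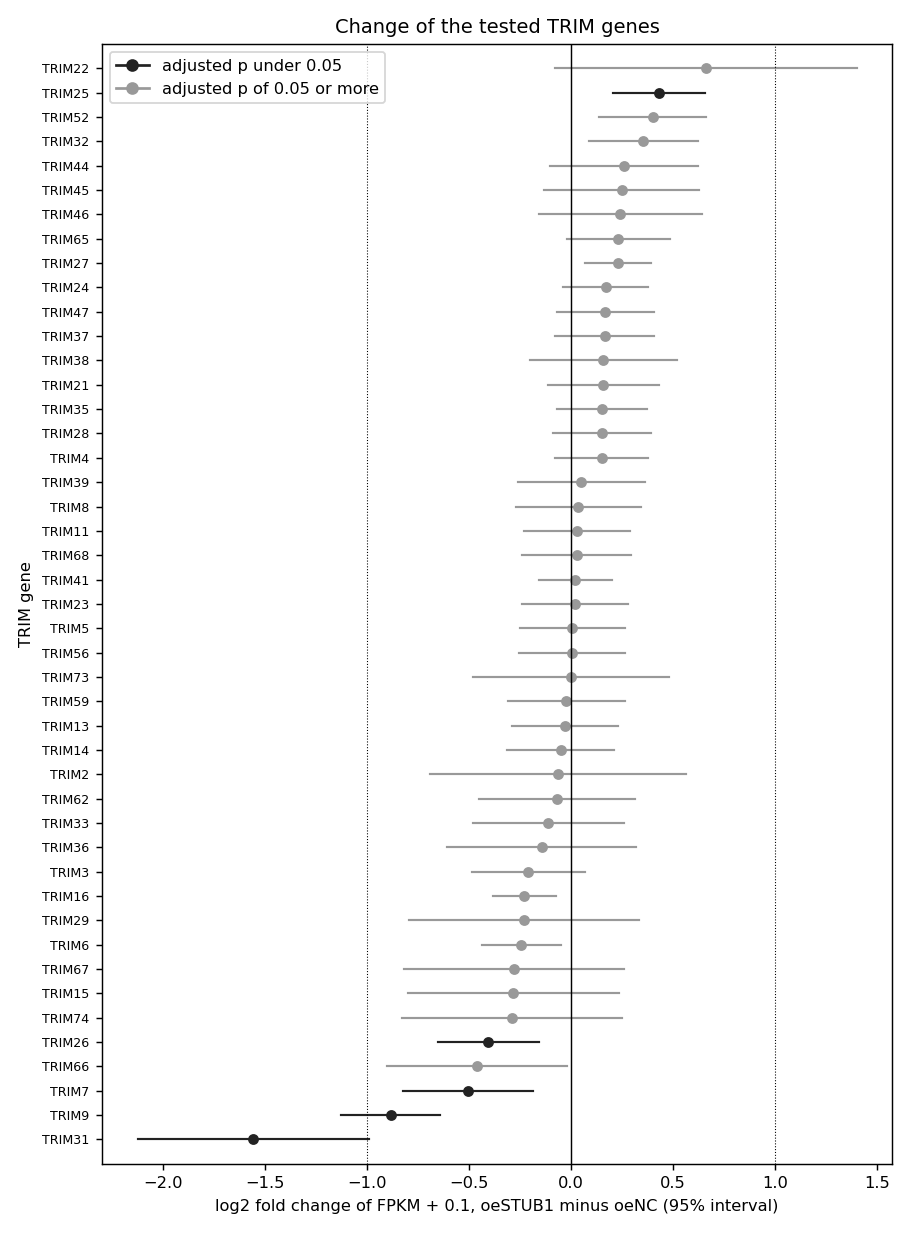
Log2 fold change of FPKM + 0.1, oeSTUB1 minus oeNC, of the 45 tested TRIM genes with 95% intervals from limma. Dark points passed an adjusted p of 0.05, and dotted lines mark -1 and 1, with TRIM31 at -1.56 the only point beyond them.

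TRIM31 showed the largest change of the family. It encodes a RING, B-box and coiled coil ligase without a further domain, known from gut epithelium, which ubiquitinates the antiviral adaptor MAVS and targets the inflammasome protein NLRP3 for degradation. It lies on chromosome 6 from 30102897 to 30113106 on the minus strand. Its level was 10.2, 10.6 and 13.4 FPKM in oeNC and 2.99, 3.12 and 5.79 FPKM in oeSTUB1, from 726, 756 and 1008 fragments and from 211, 212 and 406 fragments. The highest oeSTUB1 library was well under the lowest oeNC library, and replicate 3 was the highest of both groups. The means of 11.4 ± 1.72 and 3.97 ± 1.58 FPKM (SD, n = 3 each) are 2.87-fold apart, with a log2 fold change of -1.56 (SE 0.245, adjusted p = 0.0058 from limma). TRIM31 passed under all 16 alternatives run, between -1.86 and -1.36, with -1.42 without oeSTUB1 replicate 2. The antisense row TRIM31-AS1 held 1 fragment in 1 oeNC library and none in the others.

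TRIM9 fell by 0.88 on the log2 scale (SE 0.105, adjusted p = 0.0017 from limma). It is a ligase enriched in neurons, where it acts in axon guidance downstream of netrin, and its class carries a COS box that binds microtubules. The gene lies on chromosome 14 from 50975262 to 51096061 on the minus strand. The oeNC libraries gave 3.71, 4.09 and 3.68 FPKM from 1264, 1391 and 1326 fragments, and the oeSTUB1 libraries gave 2.14, 1.92 and 2.02 FPKM from 725, 625 and 677 fragments. The spread inside each group was small against the gap, and the means were 3.82 ± 0.229 and 2.03 ± 0.110 FPKM (SD, n = 3 each), a 1.89-fold difference. TRIM9 also passed under all 16 alternatives, between -0.92 and -0.67. Without oeSTUB1 replicate 2 it changed by -0.85.

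TRIM25 was the only member that passed in the upward direction. It attaches ubiquitin to the RNA sensor RIG-I and is itself induced by interferon, and it lies on chromosome 17 from 56836387 to 56914080 on the minus strand. Its level was 13.9, 14.1 and 13.6 FPKM in oeNC and 19.8, 16.4 and 20.2 FPKM in oeSTUB1. All 3 oeSTUB1 libraries were above the oeNC libraries, and replicate 2 was the nearest to them. The log2 fold change was 0.43 (SE 0.097, adjusted p = 0.025 from limma), and 0.53 without oeSTUB1 replicate 2 (adjusted p = 0.00053 from limma). TRIM25 lost its call when any of the other 5 libraries was left out, with adjusted p between 0.0750 and 0.0999 from limma, although the change stayed between 0.38 and 0.44.

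TRIM26, the ligase that the study set beside STUB1, restrains the interferon response by acting on nuclear IRF3 and lies on chromosome 6 from 30184455 to 30213427 on the minus strand. It stood at 15.6, 17.3 and 17.2 FPKM in oeNC and at 13.7, 10.9 and 13.3 FPKM in oeSTUB1. The groups did not overlap, with oeSTUB1 replicate 2 the lowest. The log2 fold change was -0.41 (SE 0.107, adjusted p = 0.044 from limma) and -0.30 without that library (adjusted p = 0.013 from limma). Leaving out any 1 of the other 5 libraries took TRIM26 over the threshold, with adjusted p between 0.0550 and 0.169 from limma.

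TRIM7 and TRIM52 mark the threshold. TRIM7, a PRY-SPRY ligase that binds glycogenin, lay just inside it. It stood at 1.22, 1.38 and 1.36 FPKM in oeNC and at 0.879, 1.00 and 0.826 FPKM in oeSTUB1, a log2 fold change of -0.50 (SE 0.137, adjusted p = 0.049 from limma). The groups did not overlap. When oeSTUB1 replicate 2 was left out the value was -0.57 (limma, adjusted p = 0.016), while leaving out any of the other 5 libraries gave adjusted p between 0.106 and 0.187 from limma. TRIM52, which has an enlarged RING and no further domain, lay just outside. It stood at 1.87, 1.93 and 1.63 FPKM in oeNC and at 2.39, 2.41 and 2.45 FPKM in oeSTUB1. Every oeSTUB1 library was higher and the oeSTUB1 values were very close together, and the difference was 0.40 in log2 (limma, adjusted p = 0.056). The antisense row TRIM52-AS1 had means of 4.97 FPKM in oeNC and 5.59 FPKM in oeSTUB1, and whether the counting used strand is not given in the sources used here.

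**Figure D3:**
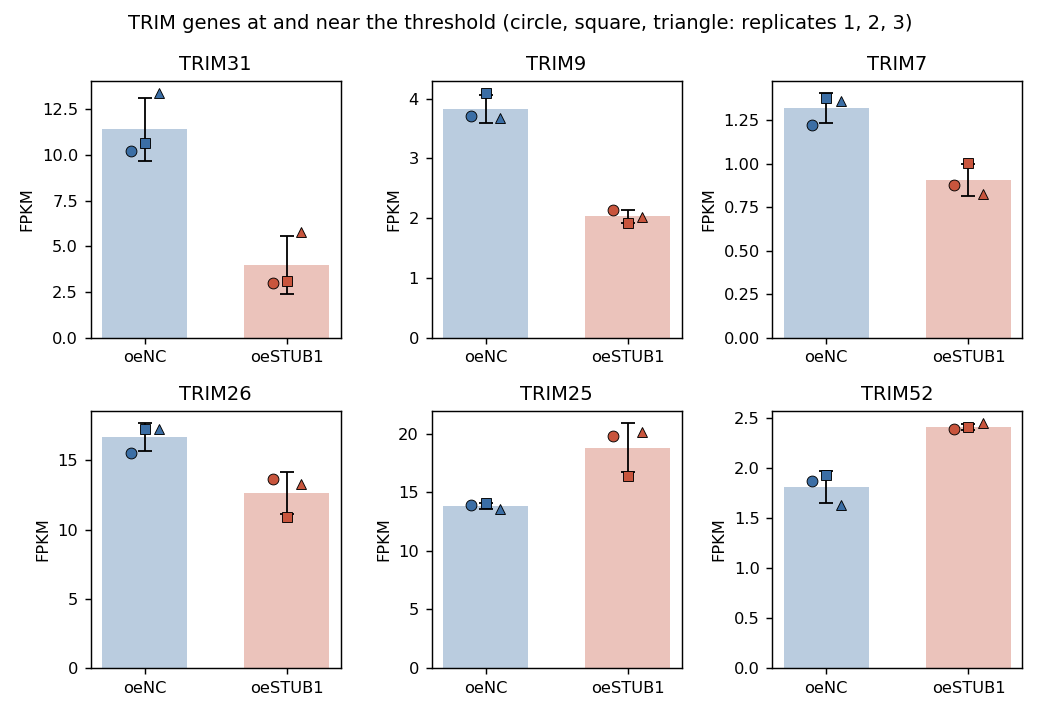
FPKM of TRIM31, TRIM9, TRIM7, TRIM26, TRIM25 and TRIM52 in each library, with bars for the group mean, error bars for the SD (n = 3) and a separate marker shape for each replicate number. TRIM31 falls from 11.4 to 3.97 FPKM, while the other genes differ by less than 2-fold with no overlap between the groups.

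The promoters of the members that changed differ in sequence. Since the study concerns the maintenance of methylation, which in mammals sits mainly on the C of CG pairs, the CG content of the 250 bases before each RefSeq start (GRCh38.p14) was counted. Starts were matched for 45 of the 57 members, 64 in all. Their median of 11 CG pairs equalled the median of 11 over all 35116 starts in the table. The TRIM31 window held 1 CG pair, and 6.06% of all starts held fewer. The windows of TRIM9, TRIM25 and TRIM26 held 27, 30 and 22, with 82.3%, 87.6% and 72.0% of all starts below them. TRIM7 has 3 starts, with 3, 16 and 25 CG pairs and 22.9%, 59.0% and 78.4% of all starts below. The 2 members with the largest falls thus lie on opposite sides of the median. No methylation was measured in these libraries. The TRIM31 and TRIM25 stretches are shown for this contrast, 5′ to 3′ on the minus strand, with CG pairs in capitals, from chr6:30113107-30113340 and chr17:56914081-56914299. They leave out bases of the windows that GENCODE release 29 places inside the gene, and the RefSeq start of TRIM31 opens none of its transcripts in that release.
TRIM31: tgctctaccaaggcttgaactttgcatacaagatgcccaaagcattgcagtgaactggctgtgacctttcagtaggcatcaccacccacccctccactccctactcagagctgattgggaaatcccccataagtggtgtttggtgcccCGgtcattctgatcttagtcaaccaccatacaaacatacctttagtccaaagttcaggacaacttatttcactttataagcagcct
TRIM25: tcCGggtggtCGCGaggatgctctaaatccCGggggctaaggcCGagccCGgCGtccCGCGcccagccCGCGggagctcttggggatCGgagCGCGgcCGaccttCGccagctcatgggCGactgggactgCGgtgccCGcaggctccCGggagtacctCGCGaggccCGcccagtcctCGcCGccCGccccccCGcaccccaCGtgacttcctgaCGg

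Several TRIM genes are interferon targets, so the windows were also searched on both strands for the string GAAANNGAAA (N is any base), the core of the element that interferon-activated factors bind. It was found in 8 of the 64 member starts (12.5%) and in 3.02% of all starts. These belong to TRIM2, TRIM5, TRIM14, TRIM16, TRIM26, TRIM34, TRIM44 and TRIM69, of which TRIM26 alone passed the test, downward. TRIM26 held 2 matches that share 4 letters, on the strand opposite to the gene, shown here in capitals as read on the minus strand at chr6:30213578-30213607. The window of TRIM25 held none. A match is a string of letters and not a bound site.
TRIM26: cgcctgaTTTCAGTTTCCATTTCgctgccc

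The PRY-SPRY class is the largest in the family, with 27 members listed and 19 tested. TRIM25 was higher, TRIM26 and TRIM7 were lower, and 16 did not pass. Among the abundant members of this class were TRIM27, TRIM41, TRIM47, TRIM4, TRIM65 and TRIM6. TRIM27, a repressor partner first known from fusions with the RET kinase, stood at 14.9, 14.9 and 15.3 FPKM in oeNC and at 17.3, 18.2 and 17.6 FPKM in oeSTUB1. All oeSTUB1 values were higher, and the log2 fold change of 0.23 did not pass (adjusted p = 0.071 from limma). TRIM6, which builds unanchored ubiquitin chains that activate the kinase IKKε, went the other way without overlap. Its values were 10.6, 10.9 and 10.9 FPKM in oeNC against 9.29, 8.43 and 9.59 FPKM in oeSTUB1, -0.24 on the log2 scale (limma, adjusted p = 0.094). Both passed without oeSTUB1 replicate 2, at 0.21 for TRIM27 (adjusted p = 0.018 from limma) and -0.19 for TRIM6 (adjusted p = 0.038 from limma).

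The other abundant PRY-SPRY members overlapped between the groups. TRIM41 had means of 15.3 ± 0.807 FPKM in oeNC and 15.6 ± 0.437 FPKM in oeSTUB1 (SD, n = 3 each), with a 95% interval of the log2 fold change from -0.16 to 0.20, and its sign turned under 4 alternatives, the 2 rescalings among them. TRIM47 had means of 14.4 and 16.3 FPKM, and TRIM4 of 10.5 and 11.7 FPKM. TRIM65, which modifies the RNA sensor MDA5, had means of 9.39 and 11.0 FPKM. Their log2 fold changes of 0.17, 0.15 and 0.23 had adjusted p of 0.32, 0.35 and 0.20 from limma, and were 0.08, 0.07 and 0.15 without oeSTUB1 replicate 2. TRIM21, the cytosolic receptor for antibody-coated virus, stood at 5.27, 6.05 and 6.26 FPKM in oeNC and 6.18, 7.46 and 6.03 FPKM in oeSTUB1, a log2 fold change of 0.16 with an interval from -0.11 to 0.43, or 0.06 without that library. TRIM22, an interferon-induced restriction factor, was near the lower limit of the test. It stood at 0.140, 0.220 and 0.358 FPKM in oeNC and at 0.352, 0.314 and 0.638 FPKM in oeSTUB1. The groups overlapped, and the log2 fold change of 0.66 had the widest interval of the family, from -0.08 to 1.40 (adjusted p = 0.21 from limma). The 8 remaining tested members of this class, TRIM11, TRIM5, TRIM35, TRIM68, TRIM39, TRIM38, TRIM62 and TRIM15, had log2 fold changes between -0.28 and 0.16. TRIM22 lies within the span of TRIM5 on the opposite strand in GENCODE release 29, so that fragments of the pair may be mixed.

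To the chromatin class with a PHD finger and a bromodomain, TRIM28, TRIM24 and TRIM33 were assigned, and all were tested. TRIM66 was assigned to the members without a RING and is given there. With all libraries 0 of 3 passed with limma or limma-voom, and 0 of 3 had an unadjusted p under 0.05. TRIM24, a coregulator of nuclear receptors, had means of 6.19 and 6.98 FPKM, with all oeSTUB1 values above all oeNC values. TRIM33, which regulates SMAD4, stood at 4.37 FPKM in oeSTUB1 replicate 2 and at 6.63 and 6.43 FPKM in the other oeSTUB1 libraries. In this member 1 library set the sign, since the log2 fold change of -0.11 became 0.08 without it.

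The class with the tripartite motif alone held 7 members, of which 6 were tested. TRIM31 fell, and TRIM52, TRIM73, TRIM74, TRIM8 and TRIM56 did not pass. TRIM8, which modulates cytokine signalling, had means of 9.65 ± 1.47 and 9.87 ± 1.10 FPKM (SD, n = 3 each). TRIM56, which acts in antiviral sensing, had means of 7.02 and 7.07 FPKM, and both genes overlapped between the groups.

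Among the 5 members without a RING, TRIM16, TRIM66, TRIM29 and TRIM14 had negative log2 fold changes and TRIM44 a positive one. None passed, and 2 of 5 had an unadjusted p under 0.05. TRIM66 stood at 1.90, 2.10 and 2.21 FPKM in oeNC and at 1.74, 1.07 and 1.71 FPKM in oeSTUB1, without overlap. Its log2 fold change was -0.46 (adjusted p = 0.15 from limma), or -0.25 without oeSTUB1 replicate 2. TRIM44, which carries a zinc finger found in deubiquitinases, stood at 8.07, 7.85 and 8.35 FPKM in oeNC and at 11.1, 7.43 and 11.0 FPKM in oeSTUB1. oeSTUB1 replicate 2 lay below the oeNC libraries while the other oeSTUB1 libraries lay above them. The log2 fold change was 0.26 with all libraries (adjusted p = 0.31 from limma) and 0.45 without replicate 2 (adjusted p = 0.0020 from limma).

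The NHL class held TRIM32, a ligase mutated in a limb-girdle muscular dystrophy, at 5.20, 5.49 and 4.87 FPKM in oeNC and 6.72, 5.80 and 7.52 FPKM in oeSTUB1. The oeSTUB1 values were all higher, and the log2 fold change of 0.35 did not pass with all libraries (adjusted p = 0.085 from limma) but did without oeSTUB1 replicate 2, at 0.45 (adjusted p = 0.0085 from limma). TRIM32 is on chromosome 9, where the median over 604 tested genes was 0.16, and the part of this chromosome-wide shift in its value was not tested. Of the same class, TRIM3 had a log2 fold change of -0.21 and TRIM2 of -0.07. TRIM37, the MATH-domain ligase lost in mulibrey nanism, had 0.16, TRIM23, which ends in an ARF domain, had 0.02, and TRIM45, with a filamin repeat, had 0.25. TRIM59 and TRIM13, which are anchored in membranes, had -0.02 and -0.03. These 7 members did not pass, and TRIM37 alone among them passed without oeSTUB1 replicate 2.

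Absence of a call is not absence of change, and the intervals say how much could have been missed. Of the 40 tested members that did not pass, 26 had a 95% interval of the log2 fold change that lay wholly between -0.5 and 0.5. The wider intervals included those of TRIM22 and TRIM74. TRIM74 and TRIM73 are near-identical copies on chromosome 7, and TRIM50, of the PRY-SPRY class, is a relative on the same chromosome. Reads shared between these genes could have been split or dropped in the counting, so their separate values are uncertain.

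Of the 12 members below the filter, 7 (TRIM34, TRIM50, TRIM49B, TRIM17, TRIM58, TRIM71 and TRIM72) were at 3 fragments or fewer in every library of both groups, which is the counting floor, and depth does not allow a comparison of them. TRIM54, a muscle ligase of the MURF type, had 3, 2 and 5 fragments in oeNC and 0, 2 and 2 fragments in oeSTUB1. It was thus at the floor in oeSTUB1 alone, and a difference was not detectable at this depth. TRIM40, a neighbour of TRIM31 known from the gut, had 7, 11 and 12 fragments in oeNC and 4, 0 and 6 fragments in oeSTUB1, without overlap and without a test. TRIM69, TRIM55 and TRIM10 overlapped between the groups, with 0 to 14 fragments a library. Floors cover counting error alone, and recovered fragments are defined only up to a whole factor shared by the 6 libraries of a gene.

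Members no more than 100 kb apart formed 5 groups holding 16 members, which differed in whether their members shared a direction. On chromosome 6 between 30102897 and 30213427, in the major histocompatibility complex, TRIM31, TRIM40, TRIM10, TRIM15 and TRIM26 follow each other. Of the 3 that were tested TRIM31 and TRIM26 fell, TRIM15 had a log2 fold change of -0.28 that did not pass (adjusted p = 0.44 from limma), and the 1 other tested gene within 100 kb had 0.13. On chromosome 5 between 181193924 and 181261139, TRIM7, TRIM41 and TRIM52 lie within 67216 bases. Their log2 fold changes were -0.50, 0.02 and 0.40, so the lowest and the highest of this group pointed in opposite directions. TRIM47 and TRIM65 on chromosome 17 both had small positive values that did not pass. On chromosome 11, TRIM6, TRIM5 and TRIM22 had log2 fold changes of -0.24, 0.01 and 0.66, none of which passed, and TRIM34 beside them was not tested, like TRIM17 beside TRIM11 on chromosome 1.

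The deviations of oeSTUB1 replicate 2 moved with gene length among the members too, though not in every member. For each of the 36 members with a mean of at least 1 FPKM, its log2 FPKM was set against the mean of the other 2 oeSTUB1 libraries. The 12 longest members, of 7369 bases or more, had a median deviation of -0.27 and 10 of them were below 0. The 12 shortest, of 3395 bases or less, had a median of 0.03. Across these members Spearman's rho between length and deviation was -0.43, and over 11375 genes it was -0.71, given as descriptions since all points come from the same libraries. TRIM74 (-0.64), which is not long, deviated as far as long members did. TRIM31 and TRIM29 also had -0.40 each, but their replicate 2 was near replicate 1 and replicate 3 was the high one. In the order of the replicates TRIM31 had 2.99, 3.12 and 5.79 FPKM, and TRIM29 had 0.773, 0.787 and 1.47 FPKM. For oeSTUB1 replicate 1 set against the other 2 libraries, replicate 2 among them, rho was 0.73 over the members. The part of gene length in the members' values was not tested. With oeSTUB1 replicate 2 left out, 7 members were higher (TRIM24, TRIM25, TRIM27, TRIM32, TRIM37, TRIM44, TRIM52) and 6 were lower (TRIM6, TRIM7, TRIM9, TRIM16, TRIM26, TRIM31). In that fit 14.8% of all genes were higher and 12.0% lower, shares close to those of the 45 members. A correction of each library for gene length, chosen after the data were seen, gave 3 higher (TRIM25, TRIM44, TRIM52) and 5 lower (TRIM6, TRIM9, TRIM16, TRIM26, TRIM31), where 10.1% of all genes were higher and 12.0% lower.

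**Figure D4:**
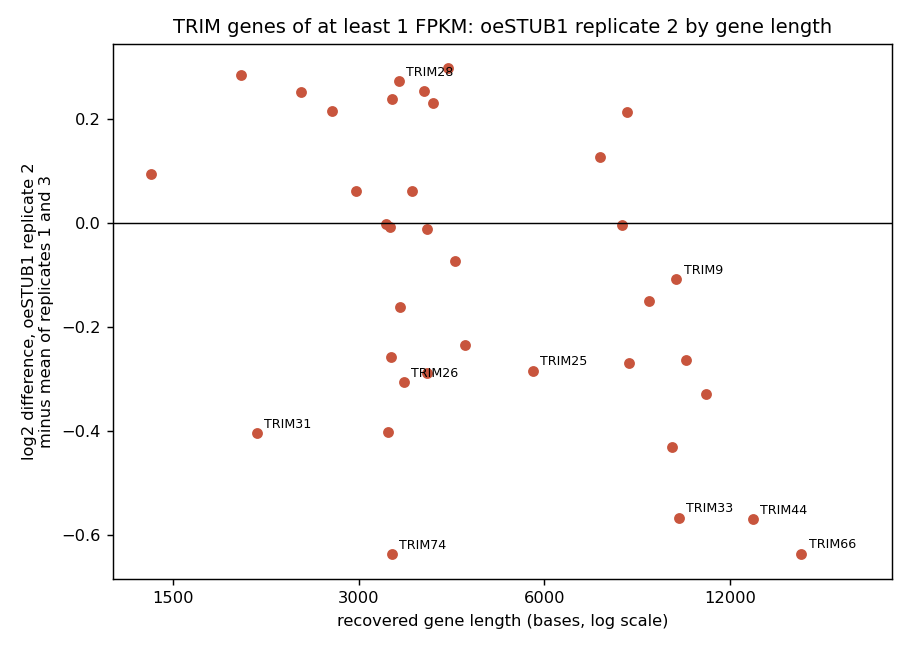
Log2 difference of oeSTUB1 replicate 2 from the mean of oeSTUB1 replicates 1 and 3, against recovered gene length in bases on a log axis, for the 36 TRIM genes of at least 1 FPKM. Of the 12 longest genes 10 lie below 0, with TRIM66 at -0.64 and TRIM44 at -0.57, while TRIM28 lies at 0.27.

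Family members with other names were read from the same fit, and 4 of the 6 listed were tested. MID2, the close relative of the microtubule-binding ligase MID1, was higher and the other 3 (MID1, PML and TRIML2) did not pass. MID2 stood at 0.670, 0.776 and 0.828 FPKM in oeNC and at 1.57, 1.22 and 1.88 FPKM in oeSTUB1. The groups did not overlap, and the log2 fold change was 0.93 (SE 0.182, adjusted p = 0.014 from limma), or 1.09 without oeSTUB1 replicate 2. The call was lost without oeNC replicate 2 (adjusted p = 0.056 from limma). MID1 was abundant and had means of 53.9 ± 2.46 and 53.2 ± 11.8 FPKM (SD, n = 3 each). In the same structural class as MID1 and MID2, TRIM9 fell, while TRIM46, TRIM36 and TRIM67 did not pass.

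The genes that TRIM25 and other antiviral members work with were described next. In the RIG-I pathway 10 of 11 genes were tested, 2 were higher and none was lower, where 7.01% of all genes tested were higher. The pathway's median was 0.13 on the log2 scale against 0.02 over all genes. DDX58, which encodes RIG-I itself, had means of 1.30 ± 0.108 FPKM in oeNC and 2.02 ± 0.181 FPKM in oeSTUB1 (SD, n = 3 each), a difference of 0.60 in log2 (limma, adjusted p = 0.021). IRF7, the transcription factor that amplifies interferon production, had means of 0.711 and 1.36 FPKM, a difference of 0.84 in log2 (limma, adjusted p = 0.022). Without oeSTUB1 replicate 2 the values were 0.63 for DDX58 and 0.69 for IRF7, and 3 genes of the pathway passed, TRAF3 being the third. Only IRF7 passed with the replicate block, and neither did without oeNC replicate 2 (adjusted p = 0.087 and 0.094 from limma). MAVS, which TRIM31 acts on, did not pass, with 21.2, 22.6 and 21.7 FPKM in oeNC and 21.3, 12.3 and 22.2 FPKM in oeSTUB1, where replicate 2 alone was low.

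Of 15 interferon target genes, 13 were tested, 5 were higher and none was lower, where 7.01% of all genes tested were higher, and their median log2 fold change was 0.74. IFI44 had the largest value, 1.28 (adjusted p = 0.025 from limma), at only 0.0421 FPKM on average in oeNC and 0.235 FPKM in oeSTUB1. ISG15, a ubiquitin-like modifier, stood at 1.76, 1.40 and 1.88 FPKM in oeNC and at 2.87, 4.79 and 2.66 FPKM in oeSTUB1, a difference of 0.95 in log2 (limma, adjusted p = 0.031). IFIT3, an RNA-binding antiviral protein, changed by 0.94 and MX1, a dynamin-like GTPase, by 0.87. These 4 genes had means under 4 FPKM in both groups. Without oeSTUB1 replicate 2 this list had 7 higher and 1 lower, where 14.8% and 12.0% of all genes were, and the values of IFI44, ISG15, IFIT3 and MX1 were 1.34, 0.69, 1.09 and 0.94. With the replicate number as a block 2 genes were higher, where 4.83% of all genes were, and without oeNC replicate 2 limma called 0 of 13, with 8 at an unadjusted p under 0.05.

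Partners of TRIM28 in heterochromatin, such as SETDB1 and the HP1 proteins, gave no call. Of 14 listed 13 were tested, 0 were higher and 0 were lower with limma and with limma-voom, 2 had an unadjusted p under 0.05, and the median log2 fold change was -0.02. The 2 at an unadjusted p under 0.05 were the deacetylase HDAC2, at 0.22, and SETDB1, at -0.24 (adjusted p = 0.098 and 0.12 from limma). The groups did not overlap in 3 partners above and 2 below, where 21.5% and 17.3% of all genes did not. Without oeSTUB1 replicate 2 HDAC2 was higher, where 14.8% of all genes were. With the gene length correction 1 partner was lower, where 12.0% of all genes were. Of 12 E2 enzymes and ubiquitin genes, 12 were tested and 1 was higher, where 7.01% of all genes tested were. That was UBE2N, which builds ubiquitin chains used in signalling rather than degradation. It stood at 14.9, 15.0 and 13.7 FPKM in oeNC and at 18.3, 19.4 and 17.1 FPKM in oeSTUB1, or 0.33 on the log2 scale (limma, adjusted p = 0.038), with no overlap between the groups. The value was 0.28 without oeSTUB1 replicate 2, where RPS27A, a ubiquitin precursor, also passed, downward. The UBE2N call was lost with the replicate block (adjusted p = 0.078 from limma) and without oeNC replicate 2 (adjusted p = 0.13 from limma).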

How the data were processed

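RNA of 6 TFK1 libraries was sequenced by the study. The authors deposited 1 table of FPKM values for 23569 genes by symbol. Per the submitters' processing notes the tools included fastp 0.20.1, HISAT2 2.1.0, HTSeq 0.11.2, R 3.2.0 and DESeq2 1.22.2 with build GRCh38.p13, while the annotation release and the strand setting are not given in the sources used here. Groups and columns were matched by the sample labels. Whole fragments were recovered for all 23569 genes from the steps between low FPKM values, and recomputed FPKM differed from the deposited ones by at most 4.93e-06. limma 3.58.1 (R 4.3.3) with an intensity trend, two-sided, was fitted to log2(FPKM + 0.1) of the 15353 genes that averaged 0.1 FPKM or more, with Benjamini-Hochberg adjustment over all of them. The pseudocount shrinks the fold changes of weakly expressed genes. The members, gene lists and classes were chosen with earlier results of these data known. The members named are those that passed an adjusted p of 0.05, TRIM21, TRIM22, TRIM25, TRIM26, TRIM28, the 10 most abundant, those nearest the threshold and those at the floor in 1 group. Genes of other lists are named where they passed, and other members and genes were named after their values were seen. A further gene of the lists is not reported here. Gene positions are from GENCODE release 29 on GRCh38, and promoters from RefSeq on GRCh38.p14.

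Recovery and fit were tested on simulated data. All 200 genes changed 4-fold were called among 15348 tested, with 15 unchanged genes called. Fragments were exact in every library for 98.8% of 22605 genes. The changed genes were drawn from those averaging 1 FPKM or more, and the dispersion was the same for every gene. No simulated library stood apart or followed gene length. The simulation thus does not measure the power for changes smaller than 4-fold, or with a library like oeSTUB1 replicate 2. Alternatives changed the pseudocount to 1 or 0.01, dropped the filter or raised it to 1 FPKM, rescaled by median ratios or by quantiles, dropped the trend, blocked on replicate number, left out single libraries, or fitted limma-voom to the fragments. A lowess correction for gene length was chosen with the data in view. Other steps ran in Python 3.11.15.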

Additional observations from a re-analysis of the deposited data

How the results depend on the processing

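TRIM31 and TRIM9 passed with the same direction under all 16 alternatives, and the count of members beyond a log2 fold change of 1 was 0 higher and 1 lower in each of them. With no intensity trend the 1 higher member of any size was TRIM52 (adjusted p = 0.045 from limma). TRIM25 lost its call there (adjusted p = 0.052 from limma). The count of 1 higher member became 2 with quantile normalization and with limma-voom, 3 with the gene length correction and 0 with the replicate block. It ranged from 0 to 7 when 1 library was left out. The 0 was reached without each of the oeNC replicates and without oeSTUB1 replicates 1 and 3, where 3 to 5 members were higher at an unadjusted p under 0.05, and the 7 without oeSTUB1 replicate 2. The 4 lower members became 2 with no filter and with the replicate block, and 2 to 6 when 1 library was left out. Their count stayed 4 with quantile normalization, but TRIM16 passed there and TRIM7 did not. The 9 list genes that passed became 5 with no filter, 4 with the replicate block, 14 with the gene length correction, and 0 to 15 when 1 library was left out. The 0 came without oeNC replicate 2, with 12 at an unadjusted p under 0.05, and the 15 without oeSTUB1 replicate 2. The cause of these shifts was not tested. With the replicate block TRIM25, TRIM26 and TRIM7 had adjusted p of 0.058, 0.086 and 0.10 from limma and no call. TRIM31 and TRIM9 passed with it. The labels do not say whether the replicate numbers pair the libraries. Deviations of same-numbered libraries correlated at -0.15, -0.08 and 0.15 over 11375 genes, and 2 of the 3 oeSTUB1 libraries correlated best with another number. With 3 libraries a group, and oeSTUB1 replicate 2 standing apart, these values cannot decide whether they are paired. TRIM41 turned sign with median-ratio scaling (-0.0012), quantile normalization (-0.022), the gene length correction (-0.030) and without oeNC replicate 2, with a range from -0.022 to 0.050 when 1 library was left out. Of 255 values of the 16 named members, 214 kept direction and call, 26 lost the call, 11 gained it and 4 turned.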
